A study of Mus musculus with 39 samples.

Results

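Collagens and laminins are the large secreted chains from which most of the extracellular matrix is assembled. The genes described here are every row of the deposited gene tables whose symbol names a numbered collagen alpha chain or a laminin alpha, beta or gamma chain. This gave 55 of the 47643 genes listed, of which 44 were collagens and 11 laminins. They were chosen by name alone, and both gene tables held all 55. By role they were 11 fibrillar collagens, 6 chains of collagen IV, 6 of collagen VI, 9 FACIT collagens (fibril-associated, with interrupted triple helices), 4 membrane-spanning collagens, 4 anchoring and network collagens, 2 multiplexins, 2 other collagens, 5 laminin alpha chains, 3 beta chains and 3 gamma chains.

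The study asked how loss of Stat3, a transcription factor activated by cytokine signalling, affects the mouse epiblast, the pluripotent epithelium that forms the embryo proper. Single epiblasts came from matings between Stat3 heterozygous mice of the outbred CD1 background and were taken at embryonic day (E) 5.5 (4 null, 2 wild type, WT), E6.5 (8 null, 9 WT) and E7.5 (3 null, 9 WT). The null embryos carried 2 copies of an allele whose Stat3 exons 20 to 22 were replaced by a neomycin resistance cassette in every cell of the conceptus, so that extraembryonic tissue lacked Stat3 as well. Visceral endoderm, the epithelium that surrounds the epiblast, and extraembryonic ectoderm were removed by hand. Epiblast stem cell (EpiSC) lines, which grow from postimplantation epiblast in culture, were sequenced as 2 null lines (2 and 6) and 2 WT lines (8 and 13), all kept with FGF2, activin A and the Wnt inhibitor XAV939 on fibronectin, which is itself a matrix protein. Each line was 1 library.

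The basement membrane is a thin sheet on which epithelia rest. Laminins join as trimers of an alpha, a beta and a gamma chain and self-assemble into a first network, collagen IV trimers form a second network that stabilises it, and nidogen and perlecan link them. In the mouse embryo of these stages a basement membrane lies between the epiblast and the visceral endoderm, and both tissues, as well as parietal endoderm, are known sources of its chains. It is broken down where mesoderm leaves the primitive streak at gastrulation, and the mesoderm then lays down fibrillar collagens and other interstitial matrix.

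Collagen IV chains are encoded as head-to-head pairs, and the starts of the 2 pairs that were detected most are shown because both members of a pair could be compared in the same libraries. Col4a1 (chr8:11198423-11312826, minus strand) and Col4a2 (chr8:11312805-11449287, plus strand) encode the ubiquitous chains, and in GRCm38 their annotated starts overlap by 22 bases. Col4a6 (chrX:141165403-141474076, minus strand) and Col4a5 (chrX:141475385-141689234, plus strand) start 1308 bases apart. The stretches below are from RefSeq for GRCm38.p6 and run 5′ to 3′ on the strand given. Capitals mark a GC box (GGGCGG or its reverse CCGCCC) or a CCAAT box (CCAAT or ATTGG), both searched on both strands.
Col4a1 and Col4a2 shared start, chr8:11312805-11312826, plus strand: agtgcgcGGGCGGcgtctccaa
Col4a6 upstream, chrX:141474077-141474326, minus strand: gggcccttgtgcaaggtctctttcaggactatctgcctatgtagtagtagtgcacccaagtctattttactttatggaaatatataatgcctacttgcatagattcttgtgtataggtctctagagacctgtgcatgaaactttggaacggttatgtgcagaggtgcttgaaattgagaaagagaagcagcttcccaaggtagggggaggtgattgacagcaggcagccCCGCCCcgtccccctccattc
Col4a5 upstream, chrX:141475169-141475384, plus strand: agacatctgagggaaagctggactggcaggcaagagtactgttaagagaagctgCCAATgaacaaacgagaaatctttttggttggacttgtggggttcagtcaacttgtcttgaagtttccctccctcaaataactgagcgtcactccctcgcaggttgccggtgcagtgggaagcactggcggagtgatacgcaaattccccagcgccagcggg
The shared start and the Col4a6 stretch each held 1 GC box, and the Col4a5 stretch held 1 CCAAT box. These stretches are shorter than the RefSeq promoter windows of 300 bases. The full windows of Col4a1 and Col4a5 each held 1 GC box and 1 CCAAT box. That of Col4a2 held 3 GC boxes and 1 CCAAT box, and that of Col4a6 held 1 GC box and no CCAAT box. For scale, 35.9% of 27025 such windows held a GC box and 37.9% held a CCAAT box. A match is only a run of letters.

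The epiblast libraries held 22941210 to 79013960 counts and the EpiSC libraries 63445877 to 127583699. Collagens and laminins together accounted for between 0.0667% and 0.524% of an epiblast library. Levels are given as CPM, a gene's counts scaled to the same total in every library, and per kilobase of annotated exon where genes are set against each other. At these depths 3 counts, the limit below which a gene was read as not detected, correspond to 0.0235 to 0.131 CPM, which covers counting error only. Stat3 itself stood at 1.22, 1.29 and 1.48 CPM in the E7.5 null epiblasts against 4.80 to 25.3 CPM in WT, and at 3.17 and 3.52 CPM in the null EpiSC lines against 17.8 and 23.0 CPM in WT. It was 9.21 to 22.6 CPM in null and 39.3 and 49.4 CPM in WT at E5.5 (log2 fold change -1.41, adjusted p = 0.999 by edgeR). At E6.5 it was 1.41 to 7.59 CPM in null and 5.84 to 27.2 CPM in WT (-1.60, adjusted p = 0.334 by edgeR), and the genotypes overlapped. Stat3 was thus called by edgeR at neither stage, whereas DESeq2 called it lower at E6.5 (adjusted p = 0.0154). Since edgeR did not call the targeted gene itself at these stages, other genes without a call there may still differ. Several libraries stood apart. E5.5 null epiblast 1 held the least collagen and laminin of any library, had 0.654 CPM of Pou5f1 and no count of Nanog, both defining genes of epiblast, and had the highest summed level of extraembryonic ectoderm markers (2293 CPM). E7.5 WT epiblast 3 held 31.1 CPM of 16 mesoderm markers where the median WT library held 706 CPM. Its mesoderm and epiblast marker sums (31.1 and 6058 CPM) lay within the E6.5 WT ranges (26.1 to 221 and 4483 to 7161 CPM), and E5.5 null epiblast 1 had little or no Pou5f1 and Nanog, so the stage label of the former and the tissue label of the latter are in doubt. Both were kept as labelled, and counts without them are given with the results. Without E5.5 null epiblast 1, still no gene was called between genotypes at E5.5, and without E7.5 WT epiblast 3 the same 17 genes were called from E6.5 to E7.5 in WT. The summed level of 18 visceral endoderm markers ran from 138 CPM (E7.5 null 2) to 14816 CPM (E5.5 null 3), and its values are given beside the results where the 2 moved together.

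A few chains made up most of the signal at every stage. In E5.5 WT epiblasts Col4a1 led with 188 CPM per kb, 34.6% of the summed level of all 55 genes, before Col4a2 (83.3 CPM per kb) and Lamc1 (79.9 CPM per kb), which encodes the gamma chain of most laminins. In E6.5 WT epiblasts the highest was Col18a1, a multiplexin whose cleavage releases endostatin, with 60.4 CPM per kb, ahead of Col4a1 (37.7 CPM per kb) and Lama5 (37.0 CPM per kb), the alpha chain of laminin-511. In E7.5 WT epiblasts Col4a1 led again with 62.3 CPM per kb, whereas in E7.5 null epiblasts Col18a1 (39.1 CPM per kb), Lama5 (26.0 CPM per kb) and Lamc1 (23.5 CPM per kb) stood above Col4a1 (19.3 CPM per kb). The number of genes with a group mean above 10 CPM was 12 in both E5.5 groups, 13 in E6.5 null, 11 in E6.5 WT, 11 in E7.5 null and 18 in E7.5 WT. Col28a1 had no count in any library, and Col8a1, which encodes a network collagen, had counts in 1 of the 35 epiblast libraries and in all 4 EpiSC lines.

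**Figure D1:**
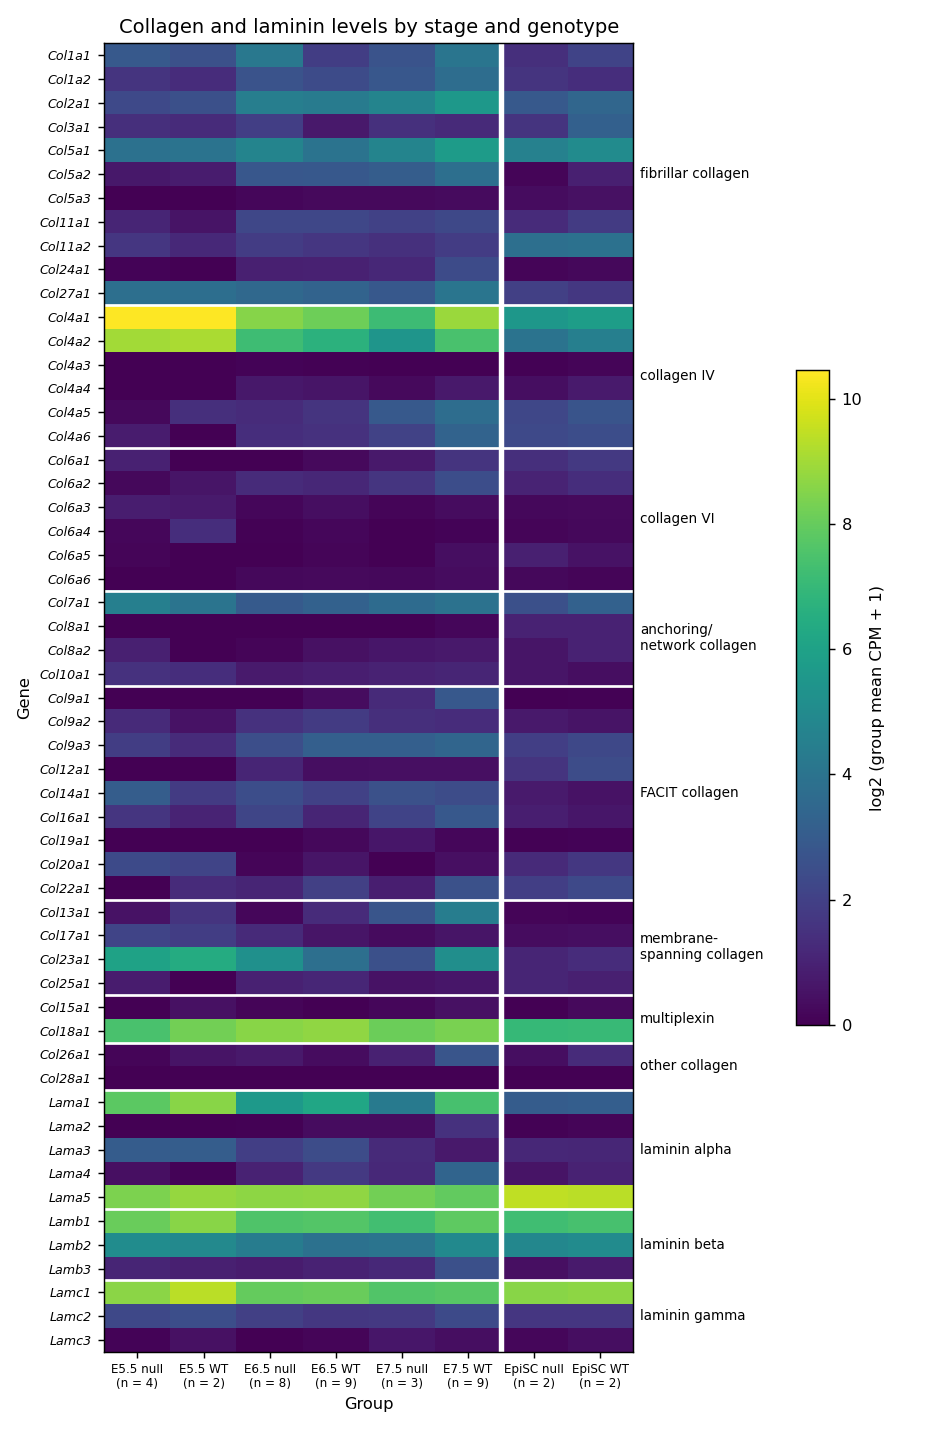
Group mean CPM of all 55 genes, plotted as log2 (mean CPM + 1) by colour, with genes in rows by role and the 8 groups in columns; the white bar separates epiblasts from EpiSC lines, which were made with another library kit. Col4a1, Col4a2, Col18a1, Lama1, Lama5, Lamb1 and Lamc1 stand out in most epiblast groups, and most other genes lie near the dark end of the scale.

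WT epiblasts gained a broad set of collagens between E6.5 and E7.5. Of the 39 genes that passed the filter on low counts, 17 were called (absolute log2 fold change over 1 and adjusted p under 0.05 in edgeR, where p came from a quasi-likelihood F test and was adjusted by Benjamini-Hochberg over all genes tested), 16 of them higher at E7.5. Of all 17191 genes tested, 8.83% were called, 5.74% higher and 3.09% lower. The median log2 fold change was 0.98 over the 39 and 0.01 over all genes. In bulk tissue a change in the number of cells of a type and a change in RNA per cell cannot be told apart. The higher genes were 5 of 10 fibrillar collagens tested, 2 of 4 chains of collagen IV, 2 of 2 of collagen VI, 2 of 6 FACIT collagens, 1 of 4 membrane-spanning collagens, Col26a1, 1 of 4 laminin alpha chains and 2 of 3 laminin beta chains. Of the 6 collagen VI chains listed only these 2 passed the filter.

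The 5 fibrillar collagens called rose from low levels, and the other 5 tested did not pass the test. Col5a1, which encodes a chain that starts fibril formation, lay at 3 to 21.3 CPM (median 16.3) in the 9 E6.5 WT epiblasts and at 21.4 to 80.3 CPM (median 49.6) in the 9 at E7.5. Every E7.5 library was above every E6.5 library, and the log2 fold change was 1.78 (SE 0.33, adjusted p = 0.000593 by edgeR). Col2a1, the major collagen of cartilage and notochord sheath, lay at 8.73 to 25.6 CPM (median 19.3) at E6.5 and 29.7 to 82.0 CPM (median 42.0) at E7.5, again without overlap, with a log2 fold change of 1.20 (SE 0.21, adjusted p = 0.00038). Col1a1 and Col1a2, which form collagen I, the main fibrillar collagen of connective tissue, rose by 2.46 (SE 0.62, adjusted p = 0.00622) and 1.49 (SE 0.36, adjusted p = 0.00421) on the log2 scale, and Col24a1 by 2.06 (SE 0.64, adjusted p = 0.0222). For these 3 genes the ranges of the 2 stages overlapped.

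Among the genes tested, the largest relative gains were of collagens that were nearly absent at E6.5. Genes this low at E6.5 could pass the filter only with counts at E7.5. Those that stayed low were not tested, so the filter itself favoured large gains here. Col9a1, a FACIT collagen that decorates collagen II fibrils, was at 0 to 1.18 CPM at E6.5, with no count in 6 of 9 libraries, and at 0 to 14.0 CPM (median 6) at E7.5 (log2 fold change 4.62, SE 1.16, adjusted p = 0.00625). Col26a1 went from 0 to 0.722 CPM to 0 to 12.1 CPM (median 5.16) (4.44, SE 1.04, adjusted p = 0.00364). In each gene a single E7.5 library had no count, and the other 8 were high. Col13a1, a membrane-spanning collagen of cell junctions, went from 0 to 3.78 CPM (median 1.01) to 1.19 to 24.8 CPM (median 22.5) (3.71, SE 0.68, adjusted p = 0.000628). All but the lowest E7.5 library lay above the E6.5 range of Col13a1. The collagen VI chains Col6a1 and Col6a2, which form beaded filaments around cells, rose by 3.23 (SE 1.03, adjusted p = 0.0254) and 1.83 (SE 0.58, adjusted p = 0.0245), and Col16a1 by 2.48 (SE 0.85, adjusted p = 0.0385), all from group means under 2 CPM.

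Within collagen IV, the X-linked pair rose and the abundant pair did not pass the test. Col4a5 lay at 0 to 3.88 CPM (median 2.06) at E6.5 and 2.81 to 28.0 CPM (median 10.7) at E7.5 (log2 fold change 2.58, SE 0.51, adjusted p = 0.000958), and Col4a6 at 0 to 5.36 CPM (median 1.67) and 4.23 to 22.1 CPM (median 5.69) (2.30, SE 0.57, adjusted p = 0.00532). The ranges of both genes overlapped slightly between the stages. Col4a1 lay at 97.3 to 945 CPM (median 133) at E6.5 and 176 to 582 CPM (median 485) at E7.5, and its E6.5 spread, led by epiblasts 3 (945 CPM), 4 (490 CPM) and 1 (356 CPM), covered the whole E7.5 range.

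Among the laminins the chains moved in different directions. Lamb2, a beta chain of mature basement membranes, lay at 11.1 to 19.2 CPM (median 13.8) at E6.5 and 20 to 39.4 CPM (median 29.5) at E7.5, with no overlap, and rose by 1.01 on the log2 scale (SE 0.13, adjusted p = 2.81e-05). Lamb3, a beta chain of epithelial anchoring laminin, lay at 0 to 3.33 CPM and 3.85 to 6.22 CPM, also without overlap (2.13, SE 0.70, adjusted p = 0.0294). Lama4, an alpha chain of vessels and mesenchyme, rose by 1.87 (SE 0.62, adjusted p = 0.0312). Lama3, the alpha chain that partners Lamb3, was the single gene called lower, from 1.32 to 14.4 CPM (median 3.38) to 0 to 1.44 CPM (median 0.307) (log2 fold change -2.88, SE 0.75, adjusted p = 0.00724). Lama5 and Col18a1, both abundant, had smaller decreases that passed the adjusted p but not the fold threshold, with log2 fold changes of -0.88 (SE 0.15, adjusted p = 0.000266) and -0.47 (SE 0.09, adjusted p = 0.000929). Lama5 lay at 315 to 606 CPM at E6.5 and 183 to 369 CPM at E7.5.

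Other markers moved between the same libraries. Of 15 mesoderm markers tested 9 were called higher at E7.5 and none lower, and the summed visceral endoderm markers had a median of 316 CPM at E6.5 WT and 2540 CPM at E7.5 WT. With the visceral endoderm markers as a covariate, 13 of the 17 genes were called and Lama4 moved from 1.87 to 0.31. The part of mesoderm in the result was not tested. In a fit with all 35 epiblast libraries, 10 of the 17 were called. With 1 of the 18 libraries left out at a time, Col16a1 was not called in 10 of the fits (adjusted p up to 0.0651), Lama4 in 8 (up to 0.0664), Lamb2 in 6 (log2 fold change down to 0.95) and Lamb3 in 2 (up to 0.0521), and the other 13 were called in all 18. Col4a1 (1.13) and Col23a1 (2.09) became called without E6.5 WT epiblast 3, and Lama1 (2.09) without E6.5 WT epiblast 4.

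In null epiblasts none of 44 genes tested was called between E6.5 and E7.5 by edgeR, beside 0.103% of 19460 genes (0.0668% higher and 0.036% lower). Of the 44, 6 had an unadjusted p under 0.05, beside 1582 of the 19460. DESeq2 called 1 gene, Col9a1, and limma with sample quality weights called 3. Col9a1 had no count in any of the 8 E6.5 null epiblasts and stood at 0.538, 1.51 and 2.11 CPM at E7.5, at least 16.7-fold higher than 3 counts per library would give. All 3 null E7.5 epiblasts therefore had the transcript, though the adjusted p by edgeR was 0.154. Col9a1 could pass the filter only through these E7.5 libraries. For Col13a1, which was at 0 in 7 of 8 E6.5 null libraries, the E7.5 values were 2.44, 2.83 and 11.9 CPM (log2 fold change 5.51, SE 1.79, adjusted p = 0.37). Lama5 followed with -0.46 (SE 0.17, adjusted p = 0.45). The null comparison had 3 libraries at E7.5, and the tests of the 2 genotypes differ in size.

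**Figure D2:**
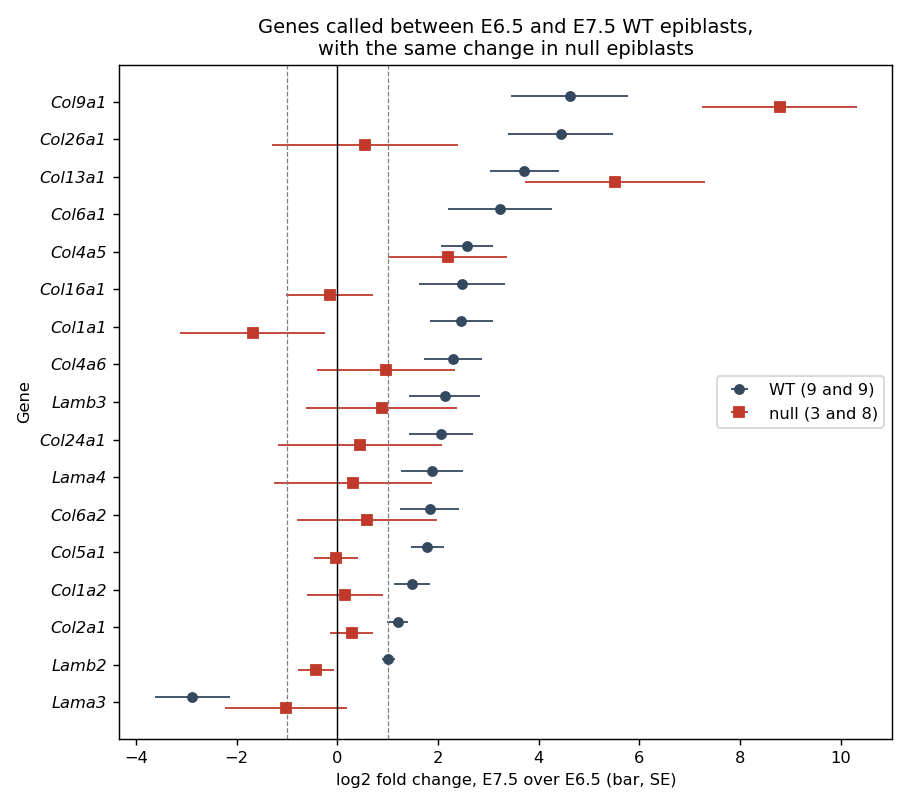
Log2 fold change from E6.5 to E7.5 (x axis; bars are SE) of the 17 genes called in WT epiblasts, for WT (dark circles) and null (red squares); dashed lines mark a log2 fold change of 1 in either direction. Col6a1 has no null value because it did not pass the filter, and the null value of Col9a1 is set against E6.5 libraries without a count. The null estimates have wide errors, and none passed the test.

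Whether the change from E6.5 to E7.5 differed between genotypes was tested as an interaction over 29 libraries. Of 52 genes tested, 1 was called, beside 0.443% of 22122 genes. This was Lamb2, with an interaction of -1.44 on the log2 scale (SE 0.34, adjusted p = 0.0441 by edgeR). At E6.5 its level was 11.9 to 38.3 CPM (median 18) in null and 11.1 to 19.2 CPM (median 13.8) in WT, and at E7.5 it was 13.7, 14.8 and 17.3 CPM in null and 20 to 39.4 CPM in WT. The genotypes overlapped at E6.5, where the highest values were null, and at E7.5 every null epiblast lay below every WT one. The call was lost when any single E7.5 null epiblast was left out, with adjusted p from 0.111 to 0.185. It was also lost with the visceral endoderm markers as a covariate (-1.09, adjusted p = 0.35), and the median interaction of the 17 such markers tested was -4.67, with none called. For Col5a1 the interaction was -1.82 (SE 0.59, adjusted p = 0.131) and for Col19a1 7.58 (SE 2.49, adjusted p = 0.139), the latter on a gene with at most 41 counts in any epiblast.

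At E7.5 both abundant collagen IV chains, the laminin alpha 1 chain and a membrane-spanning collagen were lower in null than in WT epiblasts. Of 49 genes tested, 4 were called and all 4 were lower, namely Col23a1, Col4a1, Col4a2 and Lama1. Of all 19680 genes tested, 1.17% were called, 0.0813% higher and 1.09% lower. The median log2 fold change over the 49 was -0.88 (7 above 0 and 42 below), beside -0.02 over all genes. These comparisons use the same 9 E7.5 WT libraries as the stage comparison in WT, so the results are not independent.

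Col4a1 stood at 145, 115 and 173 CPM in the 3 null epiblasts and at 176 to 582 CPM (median 485) in the 9 WT epiblasts. All null values lay below every WT value, but the lowest WT library, epiblast 3, was only just above the highest null. The log2 fold change was -1.60 (SE 0.30, adjusted p = 0.033). Its partner Col4a2 stood at 41.4, 32.3 and 53.3 CPM in null and 52.0 to 245 CPM (median 179) in WT, with WT epiblast 3 inside the null range (-1.97, SE 0.39, adjusted p = 0.0346). The X-linked pair was not called by edgeR, with -0.84 for Col4a5 (SE 0.48, adjusted p = 0.369) and -1.45 for Col4a6 (SE 0.50, adjusted p = 0.121). DESeq2 and limma with sample quality weights both called Col4a6.

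Lama1 encodes the alpha chain of laminin-111, an early laminin of the embryo. It stood at 12.3, 10.6 and 33.1 CPM in null and 18.3 to 224 CPM (median 173) in WT, where 8 of 9 libraries were at 159 CPM or above and epiblast 3 was at 18.3 CPM. The log2 fold change was -3.11 (SE 0.69, adjusted p = 0.0483). The beta and gamma chains of the same trimer moved less. Lamb1 was at 144, 147 and 179 CPM in null and 167 to 262 CPM (median 242) in WT (-0.48, SE 0.11, adjusted p = 0.0435, under the fold threshold), and Lamc1 was at 179, 197 and 207 CPM in null and 159 to 290 CPM in WT, with a log2 fold change of -0.07. Lama5, the other abundant alpha chain, was at 215, 309 and 365 CPM in null and 183 to 369 CPM (median 219) in WT, and the groups overlapped fully. Lamb2 missed the fold threshold (-0.90, SE 0.19, adjusted p = 0.0338).

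Col23a1, a membrane-spanning collagen that is shed from the cell surface, showed the smallest p. It stood at 3.26, 3.77 and 7.59 CPM in null and 22.6 to 53.9 CPM (median 30.8) in WT, with a gap between the groups and a log2 fold change of -2.76 (SE 0.32, adjusted p = 0.00498). Col23a1, Col4a1, Lamb2 and Lamb3 were the 4 of 55 genes whose null and WT values did not overlap, and all 4 passed the filter and were lower in null. Over all 19680 genes tested, 2.45% had every null library below every WT library and 1.39% every null library above. Genes that had risen in WT were mostly below 0 in this comparison without passing the test, among them Col5a1 (-0.99, adjusted p = 0.131), Col2a1 (-0.80, adjusted p = 0.141), Col24a1 (-1.71, adjusted p = 0.0939) and Lamb3 (-1.82, adjusted p = 0.0961). No fibrillar, FACIT or collagen VI gene was called by edgeR. DESeq2, however, called the fibrillar Col5a1, Col24a1 and Col27a1 lower, and Lamb3 as well. Limma with sample quality weights called these genes too, and also the FACIT collagen Col19a1, Col13a1 and Lama3.

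**Figure D3:**
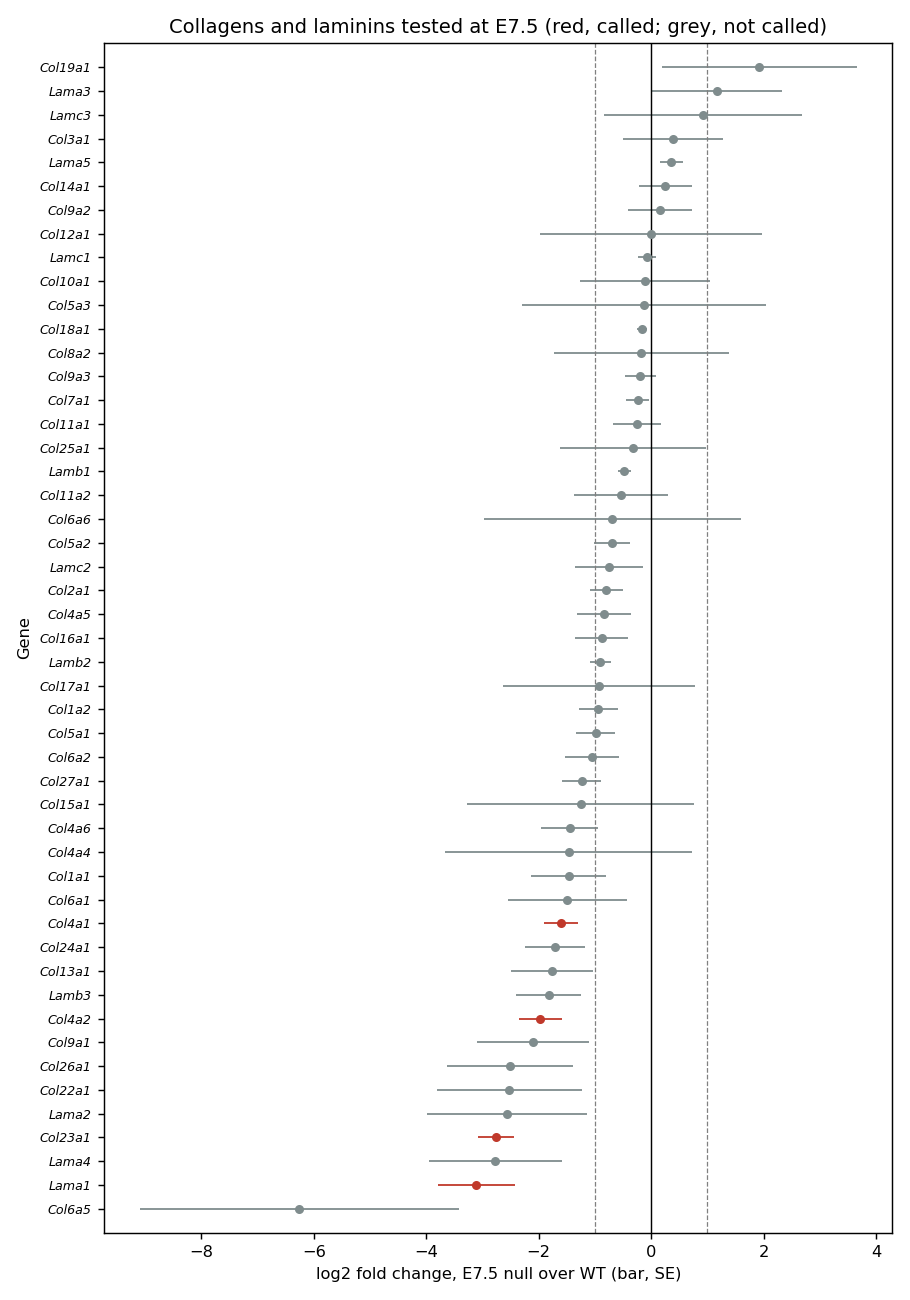
Log2 fold change of null over WT epiblasts at E7.5 (x axis; bars are SE) for the 49 genes tested, ordered by size; red marks the 4 genes called, grey the others, and dashed lines a log2 fold change of 1. Most estimates, 42 of 49, lie below 0, and Col6a5 at the foot of the plot rests on WT counts in 4 of 9 libraries and none in null.

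The E7.5 result moved with the visceral endoderm markers. Their summed level was 302, 138 and 485 CPM in the null epiblasts and 694 to 5810 CPM (median 2540) in WT, without overlap, and the lowest WT library was again epiblast 3. Of the 18 markers, 17 were tested, all 17 were below 0 and 3 (Afp, Apoe and Trf) were called lower; 8 were lower in every null library than in every WT library (2.45% of all genes tested were), and Fxyd3 was at 0 in every null library. The 4 parietal endoderm markers summed to 3.93 to 10.3 CPM in null and 13.8 to 59.8 CPM in WT, also without overlap, while the sum of 12 extraembryonic ectoderm markers was 347 to 435 CPM in null and 87.5 to 224 CPM in WT, although 3 of its 10 tested genes (Rhox5, Tead4 and Wnt6) were called lower, none higher, and their median log2 fold change was -2.03. The 16 mesoderm markers summed to 115 to 463 CPM in null and to 682 to 838 CPM in 8 of the WT epiblasts, with 31.1 CPM in WT epiblast 3; 2 (Msgn1 and Twist1) were called lower and the median log2 fold change was -2.71. For 8 epiblast markers it was 1.16, with none called. Their sum was 4499 to 6244 CPM in null, within the E6.5 WT range (4483 to 7161 CPM). In E7.5 WT the median sum was 2160 CPM, and the highest was 6058 CPM in epiblast 3. The mesoderm sums of the null epiblasts reached above the E6.5 WT range (26.1 to 221 CPM). The authors describe null epiblasts of this stage as delayed and closer to WT epiblasts of the stage before. The part of these markers, or of such a delay, in the result was not tested. With the visceral endoderm markers as a covariate the log2 fold changes were -0.27 for Col4a1, -0.31 for Col4a2, -1.22 for Lama1 and -1.84 for Col23a1, and none was called. Since the marker levels of the 2 groups do not overlap at E7.5, that fit extends beyond the data, and genotype and visceral endoderm content cannot be told apart here. The count of called genes was 9 with DESeq2 and 12 with limma and sample quality weights (2 higher and 10 lower), 0 with all 35 epiblast libraries in 1 fit, 0 without null epiblast 2, 1 without null epiblast 1 or 3 or any of WT epiblasts 1, 4, 5, 6, 7 and 8, 3 without WT epiblast 2 or 9, and 13 without WT epiblast 3. Where 1 gene was called, it was Col23a1. Over all genes tested, the calls were 231 in the main fit, 1022 with DESeq2 and 1190 with limma and sample quality weights. With all 35 epiblast libraries in 1 fit they were 11.

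**Figure D4:**
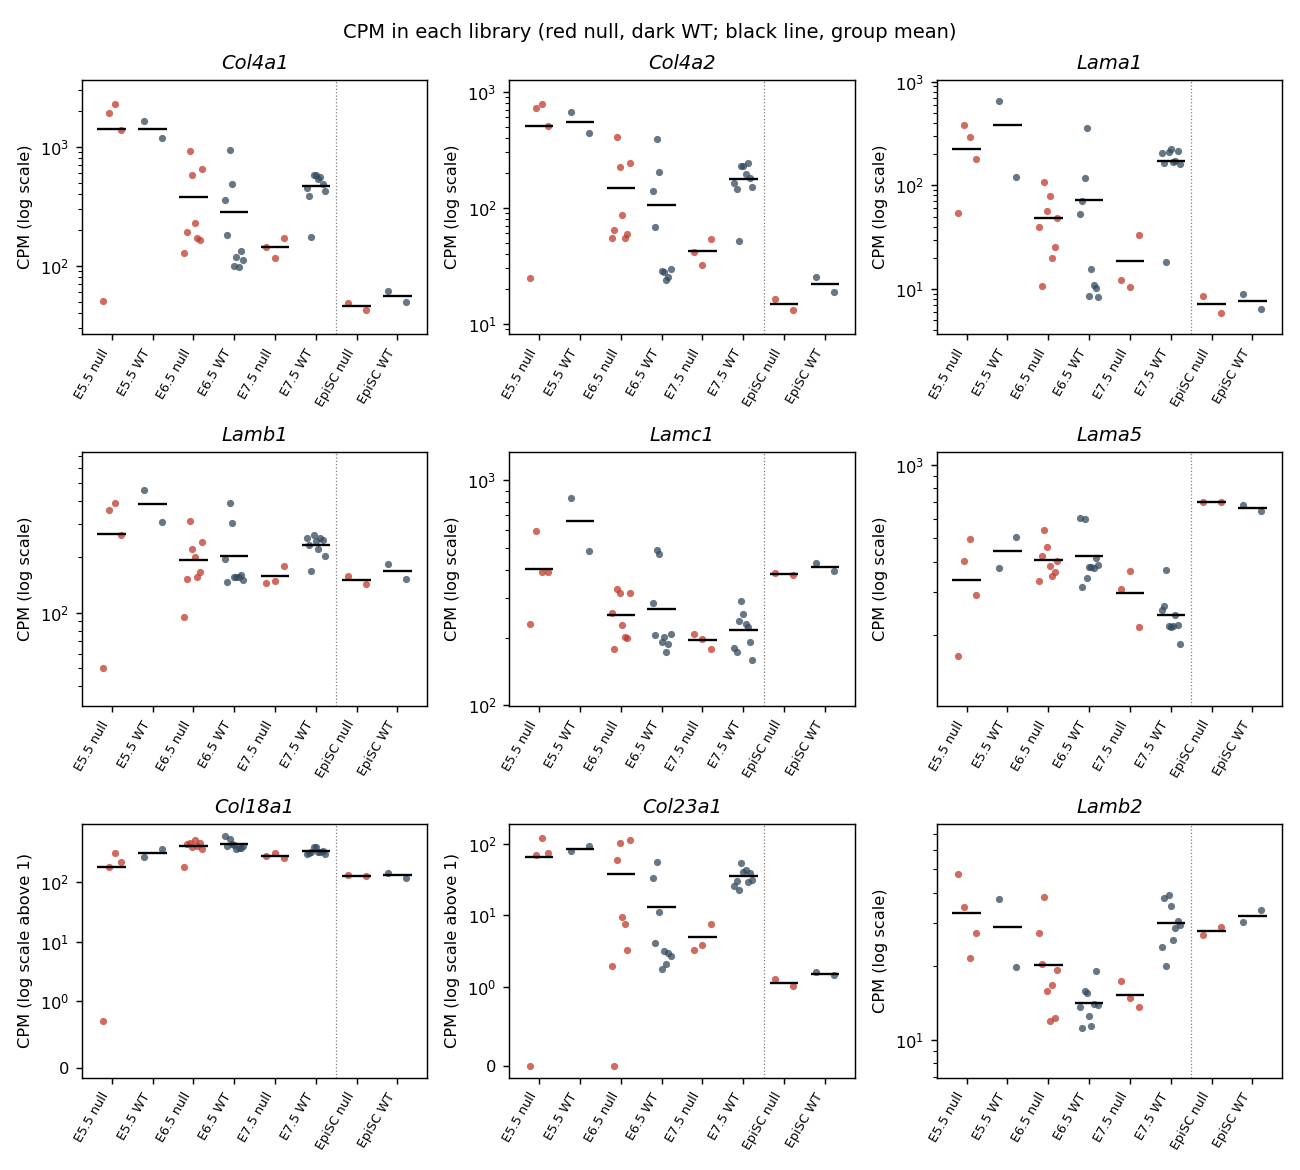
CPM in each library (points; red null, dark WT) for 9 genes, with the group mean as a black line; y axes are logarithmic, linear below 1 where a library was at 0, and the dotted line separates EpiSC lines. Col4a1, Col4a2, Lama1 and Col23a1 spread widely within the E6.5 groups and are lower in E7.5 null than in most E7.5 WT epiblasts, while Lamc1 and Lama5 vary less within groups.

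At E5.5 and E6.5 no collagen or laminin was called between genotypes. At E5.5 edgeR called 0 of 39 genes, and 0% of 18690 genes in all. DESeq2 also called none of the collagens and laminins, beside 32 genes in all. By edgeR, 2 of the 39 had an unadjusted p under 0.05, beside 467 of the 18690 genes. Those 2 were low. Col6a1 was at 0.523 to 1.40 CPM in the 4 null epiblasts and at 0 in both WT ones (adjusted p = 0.999), and Col22a1 at 0 in all 4 null and at 1.34 and 1.5 CPM in WT (adjusted p = 0.999). Col8a2 had the next smallest p, with no count in WT and 0 to 2.31 CPM in null (adjusted p = 0.999). Col4a1 was at 51.1, 1920, 2265 and 1377 CPM in null and 1626 and 1180 CPM in WT. The low value was epiblast 1, which also had 24.8 CPM of Col4a2, 0.708 CPM of Col18a1 and no count of Col23a1; of the other 3 null epiblasts 2 lay above both WT ones and 1 between them.

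At E6.5 edgeR called 0 of 38 genes, and 0% of 17095 in all. Of the 38, 4 had an unadjusted p under 0.05, beside 1414 of the 17095. DESeq2 called no collagen or laminin, beside 28 genes in all. Limma with sample quality weights also called none of them, beside 87 genes in all. Col1a1 was at 1.5 to 114 CPM (median 3.46) in null and 0 to 6.76 CPM (median 2.61) in WT (log2 fold change 2.67, SE 0.97, adjusted p = 0.461). Null epiblast 3 alone held the value of 114 CPM, and without the 6 most deeply sequenced E6.5 libraries (null 1 to 3 and WT 1 to 3) the log2 fold change of Col1a1 was -0.26. Col13a1 was at 0 in 7 of 8 null libraries and at 0 to 3.78 CPM in WT (-3.59, SE 1.44, adjusted p = 0.509), and Lamb2 had 0.52 (SE 0.22, adjusted p = 0.547). Col4a1 was at 128 to 921 CPM (median 211) in null and 97.3 to 945 CPM (median 133) in WT, so the genotypes covered nearly the same range.

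The wide E6.5 spread of Col4a1 and Col23a1 went with the visceral endoderm markers in libraries at either end of the marker range. The null epiblasts 3, 4 and 8 held 8264, 6343 and 5537 CPM of the markers and 921, 576 and 650 CPM of Col4a1, and WT epiblast 3 held 7201 CPM of the markers and 945 CPM of Col4a1. By contrast WT epiblasts 5 to 9 held 159 to 316 CPM of the markers and 97.3 to 133 CPM of Col4a1. Col23a1 was at 59.1, 101 and 114 CPM in null epiblasts 3, 4 and 8 and at 1.77 to 3.11 CPM in WT epiblasts 5 to 9. Among null epiblasts 3, 4 and 8, Col23a1 was lowest where the markers were highest. Lama1 followed less closely, since WT epiblast 4 had its highest level at E6.5 (359 CPM) with 1187 CPM of the markers. Col18a1 lay at 359 to 581 CPM in all 9 WT epiblasts. The part of visceral endoderm in these levels was not tested beyond the covariate fits.

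**Figure D5:**
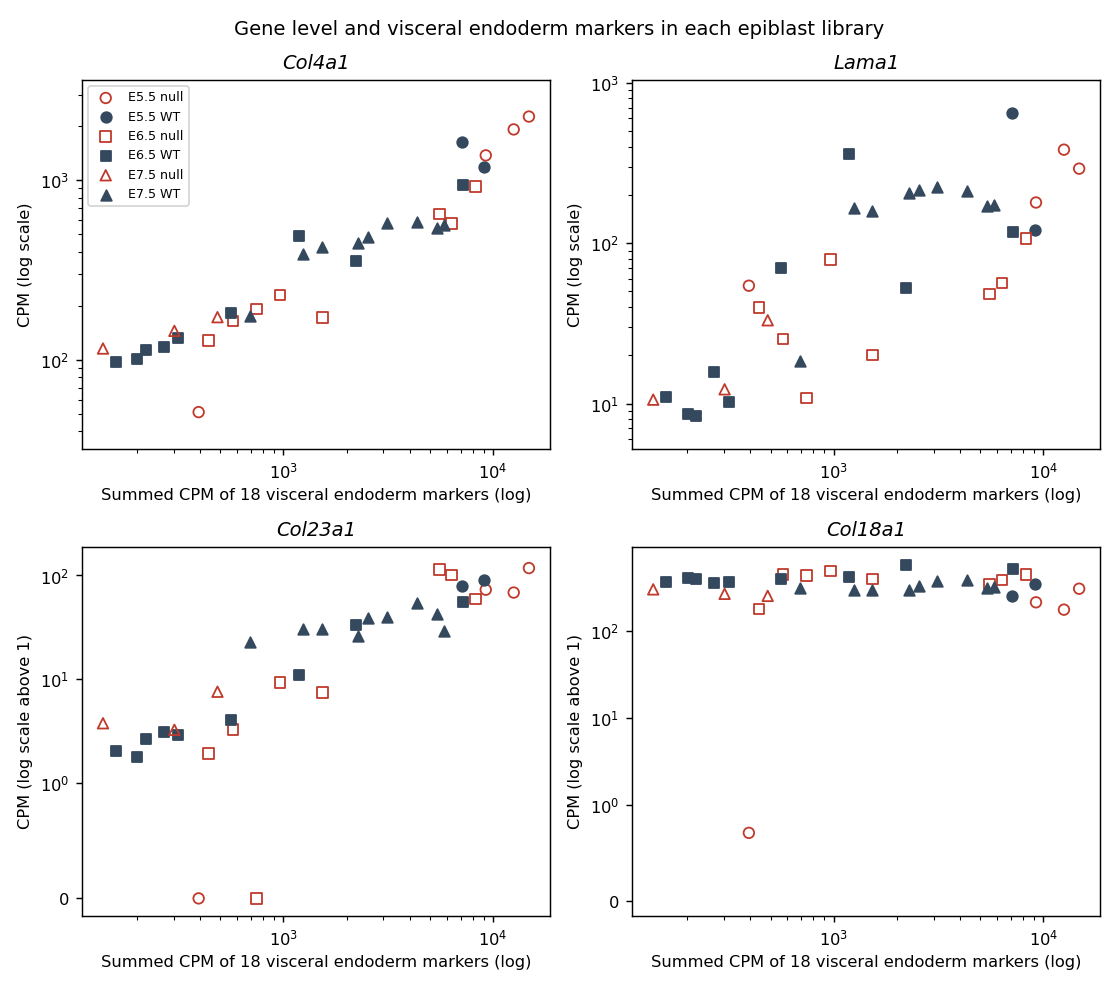
CPM of Col4a1, Lama1, Col23a1 and Col18a1 (y axes, logarithmic, linear below 1 where a library was at 0) against the summed CPM of 18 visceral endoderm markers (x axis, logarithmic) in the 35 epiblast libraries; symbols mark stage, open red null and filled dark WT. Col4a1 and Col23a1 tend to be higher where the markers are higher, Lama1 does so more loosely, and Col18a1 shows no such trend, at 176 to 581 CPM in all libraries but E5.5 null epiblast 1 (0.708 CPM).

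From E5.5 to E6.5 the WT epiblasts showed fewer calls. Of 49 genes tested, 4 were called higher and 1 lower, beside 2.52% higher and 2.63% lower (5.15% in all) of 20763 genes. Col2a1 went from 1.62 and 8.02 CPM to 8.73 to 25.6 CPM, with all E6.5 libraries above both E5.5 ones (2.05, SE 0.54, adjusted p = 0.0311). Col9a3, another chain of collagen IX, went from 0.301 and 2.57 CPM to 4.20 to 11.5 CPM, also without overlap (2.54, SE 0.69, adjusted p = 0.0339). Col25a1, a membrane-spanning collagen of neurons, and Col4a6 had no count in either E5.5 WT epiblast, and their E6.5 means of 1.17 and 1.79 CPM were at least 10.7-fold and at least 16.4-fold higher than 3 counts per library would give (adjusted p = 0.0248 and 0.042). Both could pass the filter only through the E6.5 libraries, where they were higher. Lamb2 fell by 1.01 on the log2 scale (SE 0.24, adjusted p = 0.0202), from 37.9 and 19.9 CPM to 11.1 to 19.2 CPM. The balance of directions depended on the method. DESeq2 called 8 higher and 4 lower, with all 5 of these genes among them, whereas limma with sample quality weights called 0 higher and 9 lower and the replicate block 0 higher and 2 lower (Col4a1 and Col4a2), neither sharing a gene with the 5. With the visceral endoderm markers as a covariate, Col25a1 and Lama4 were called higher.

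The abundant basement membrane chains had lower E6.5 levels that did not pass this test in WT. Col4a1 was at 1626 and 1180 CPM at E5.5, above all 9 E6.5 libraries, with a log2 fold change of -2.27 (adjusted p = 0.12), and Lamc1 was at 836 and 486 CPM against 173 to 492 CPM (-1.27). The summed visceral endoderm markers were at 7119 and 9085 CPM in these 2 E5.5 libraries and had a median of 316 CPM at E6.5, and with them as a covariate the change of Col4a1 was -0.38. With only 2 E5.5 WT epiblasts the count of calls depended on single libraries, from 1 without E5.5 WT epiblast 1 and 2 without E6.5 WT epiblast 2, 5, 6, 7 or 9 to 12 without E6.5 WT epiblast 3. The single gene without E5.5 WT epiblast 1 was Col9a2, which was not among the 5. The count was 3 without E5.5 WT epiblast 2 or E6.5 WT epiblast 4 or 8, and 13 without the 3 most deeply sequenced E6.5 WT libraries.

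In null epiblasts 2 of 41 genes tested were called between E5.5 and E6.5, both lower, beside 1.98% of 18352 genes called in all and 0.757% called lower. Lama1 was at 54.3, 383, 291 and 179 CPM at E5.5 and at 10.8 to 107 CPM (median 43.9) at E6.5, with overlap only through E5.5 epiblast 1 (log2 fold change -2.24, SE 0.56, adjusted p = 0.0476). The summed visceral endoderm markers had a median of 10880 CPM in these E5.5 libraries and 1249 CPM at E6.5, and with them as a covariate the change of Lama1 was -1.46 (adjusted p = 0.112). Col6a1 was at 0.523 to 1.40 CPM at E5.5 and had no count in any of 8 E6.5 null epiblasts, at least 11.6-fold lower than its E5.5 mean when E6.5 is set at 3 counts per library (adjusted p = 0.025, and 0.0354 with the covariate). Col6a1 could pass the filter only through the E5.5 libraries, where it was higher. Col5a2 had the next smallest p (3.35, SE 0.99, adjusted p = 0.0768). No gene was called without E5.5 null epiblast 2, 3 or 4, only Col6a1 was called without any 1 of E6.5 null epiblasts 4 to 8, and 3 genes were called without E5.5 null epiblast 1.

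In the EpiSC lines the laminins of the 511 type led. Lama5 was at 706 and 700 CPM in the null lines and 684 and 645 CPM in WT, and Lamc1 at 387 and 380 CPM against 428 and 396 CPM. Lama5 made up 37.0% of the summed CPM per kb of all 55 genes in null and 33.0% in WT. Col4a1 was at 48.5 and 43.0 CPM in null and 61.4 and 49.5 CPM in WT, and Lama1 at 8.57 and 5.90 CPM in null and 9.05 and 6.42 CPM in WT. Beside these, the E6.5 WT epiblasts had means of 422 CPM of Lama5, 282 CPM of Col4a1 and 72.6 CPM of Lama1; the library kits differ and no test was made between the tables. The 18 visceral endoderm markers summed to 44.4 to 67.1 CPM in the 4 lines, below every epiblast library.

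Between null and WT EpiSC lines edgeR called 0 of 50 genes, beside 0.106% of 20736 genes (0.0434% higher and 0.0627% lower). Of the 50, 15 had an unadjusted p under 0.05, beside 1885 of the 20736. DESeq2 called 1 (Col26a1). The median log2 fold change was -0.42, with 12 genes above 0 and 38 below, beside -0.01 over all genes. Col26a1 was at 0.284 and 0.349 CPM in null and 0.959 and 1.97 CPM in WT (-2.21, SE 0.46, adjusted p = 0.191). Col5a1 was at 22.2 and 23.6 CPM in null and 29.4 and 35.4 CPM in WT (-0.51, SE 0.11, adjusted p = 0.205), and Col7a1, the collagen of anchoring fibrils, at 4.33 and 5.51 CPM in null and 8.16 and 8.61 CPM in WT (-0.78, SE 0.19, adjusted p = 0.254). In all 3 genes both null lines were below both WT lines. They were named for the smallest p, so this separation adds no support of its own.

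The genes that process, bind or degrade collagens and laminins were read alongside. From E6.5 to E7.5 in WT, 4 of 27 collagen-modifying enzymes and chaperones tested were called higher and 1 lower, among them Bmp1, which trims fibrillar procollagens (1.58, SE 0.24, adjusted p = 7.86e-05), and Serpinh1, the collagen chaperone HSP47 (1.15, SE 0.25, adjusted p = 0.00264). Of 24 basement membrane and matrix partners, 11 were called higher and none lower, including the fibronectin gene Fn1 (2.54, SE 0.29, adjusted p = 2e-05) and the fibrillin gene Fbn2 (3.85, SE 0.47, adjusted p = 2.65e-05). Of 13 receptors, Adgrg1, a receptor for collagen III, was called higher (1.55, SE 0.26, adjusted p = 0.00024) and Itga3, an integrin chain that binds laminins, lower (-1.29, SE 0.36, adjusted p = 0.0148). Of 14 matrix proteases and inhibitors 3 were called higher. Of all genes tested between these stages, 5.74% were called higher and 3.09% lower. From E5.5 to E6.5 in WT, 2 of 29 enzymes, 4 of 24 partners and 1 of 16 proteases and inhibitors were called higher, and 1 enzyme, 4 partners and 5 of 15 receptors lower. Here 2.52% of all genes tested were called higher and 2.63% lower. Sparc, which binds collagen IV, fell by 2.1 in WT (SE 0.44, adjusted p = 0.0147) and by 2.42 in null epiblasts (SE 0.34, adjusted p = 0.00355) over this interval.

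At E7.5, null against WT, 3 of 25 partners were called lower, namely Nid1, Fbln1 and Frem1. Nid1, the nidogen that links laminin to collagen IV, was at 4.03, 3.63 and 4.97 CPM in null and 8.90 to 23.7 CPM in WT, without overlap (-1.87, SE 0.31, adjusted p = 0.0179). Of 29 enzymes Loxl2, a lysyl oxidase that crosslinks collagen IV, was called lower (-1.54, SE 0.28, adjusted p = 0.0285), and of 16 receptors the syndecan Sdc4 (-1.18, SE 0.27, adjusted p = 0.0417). Of 15 proteases and inhibitors 4 were called lower (Mmp11, Mmp15, Plat and Reck) and Adamts9, a matrix protease, was called higher (1.88, SE 0.24, adjusted p = 0.00877). For scale, 1.09% of all genes tested were called lower and 0.0813% higher. Leaving out 1 library at a time, Adamts9 was called in 11 of 12 fits, Nid1 in 9, Loxl2 in 8 and each of the others in at most 3. None of these was called with the visceral endoderm markers as a covariate. No gene of these 4 lists was called between genotypes at E5.5, E6.5 or in EpiSC lines, or between E6.5 and E7.5 in null epiblasts.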

How the data were processed

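RNA from single epiblasts (35 libraries, SMARTer Stranded Total RNA-seq Pico kit) and EpiSC lines (4 libraries, NEBNext Ultra II after rRNA removal) was sequenced. The authors trimmed reads with Trim Galore, aligned them to GRCm38/mm10 with HISAT2 and deposited StringTie gene counts, not normalized; the annotation release and the strand setting are not given in the sources used here. Without strand, reads in the 22 bases shared by Col4a1 and Col4a2 cannot be assigned. Each table was tested separately in edgeR 4.0.16 (R 4.3.3; TMM, filterByExpr with a minimum count of 10 and total of 15, robust quasi-likelihood F test, Benjamini-Hochberg adjustment over all genes tested). SE is the log2 fold change over the root of F. Only the groups compared entered a fit. The code was tested on simulated data. DESeq2 1.42.0, limma 3.58.1 voom with sample quality weights, other normalizations and filters, and fits without each library were alternatives; the marker covariate and the depth splits were chosen after seeing the data. The genes and gene lists were chosen with earlier results of these data known. Test values are given for genes called in a comparison, for the 3 with the smallest p where fewer than 3 were called and for some others, named after their values were seen; other genes of the matrix are named only where called, at most 5 per list and comparison by smallest p. No library repeated another (highest r 0.992 among epiblasts). Each epiblast is a separate embryo and each line 1 culture, so the EpiSC spread may be technical in part.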

Additional observations from a re-analysis of the deposited data

Results flagged for a closer look

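Of 40 groups of values checked for a library far from the rest (9 abundant or called genes, and the total share of all 55 genes, in the 4 groups of 4, 8, 9 and 9 libraries), 7 held one. The limit used assumes normally spread values, and the sets share libraries and related genes, so no chance rate is given. E7.5 WT epiblast 3 was lowest in its group for Col4a1 (176 CPM, the next library 386 CPM) and Lama1 (18.3 CPM, next 159 CPM) and highest for Lama5 (369 CPM, next 263 CPM). E6.5 WT epiblast 3 was highest for Col4a1 (945 CPM, next 490 CPM) and Col4a2 (394 CPM, next 205 CPM). E6.5 WT epiblast 4 was highest for Lama1 (359 CPM, next 118 CPM), and E6.5 null epiblast 1 lowest for Col18a1 (178 CPM, next 349 CPM). The 2 libraries numbered 3 were also extreme in visceral endoderm markers within their groups, lowest at E7.5 and highest at E6.5. The genotype difference of Lamb2 differed between E6.5 and E7.5 by -1.44 on the log2 scale (adjusted p = 0.0441 by edgeR), which any single E7.5 null epiblast left out undid.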

How the results depend on the processing

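For genotype at E5.5 and E6.5 the count of called genes was 0 in every alternative run. At E7.5 it was 4, and 9 with DESeq2, 12 with limma voom and sample quality weights, 0 with all 35 libraries in 1 fit, 0 with visceral endoderm markers as a covariate, and 0 to 13 leaving out single libraries. Over all genes at E7.5 the main fit called 231, DESeq2 1022 and limma voom 1190. In EpiSC lines it was 0, and 1 with DESeq2 and 0 to 2 leaving out single lines. From E5.5 to E6.5 in WT it was 5, and 12 with DESeq2, 9 with voom, 2 with all libraries in 1 fit, 2 with the covariate, 13 without the deepest E6.5 libraries (WT 1 to 3), and 1 to 12 leaving out single libraries. From E6.5 to E7.5 in WT it was 17, and 10 with all libraries in 1 fit, 13 with the covariate, and 14 to 19 leaving out single libraries. In null epiblasts it was 2 from E5.5 to E6.5, and 5 with DESeq2, 1 without a filter, 1 with a mean count of at least 50, 8 with voom, 5 with all libraries in 1 fit, 1 with the covariate, 5 without the deep E6.5 libraries (null 1 to 3), and 0 to 3 leaving out single libraries. From E6.5 to E7.5 in null it was 0, and 1 with DESeq2, 3 with voom, 3 with all libraries in 1 fit and 2 without the deep libraries. For the interaction it was 1, and 3 with DESeq2, 0 without a filter, 10 with voom, 0 with the covariate, 4 without E6.5 WT 3 and E7.5 WT 3, and 0 without any E7.5 null library. Where a count moved, the cause was not tested.

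With the replicate number as a block the counts were 0 at E7.5, 2 from E5.5 to E6.5 in WT, 0 from E5.5 to E6.5 in null and 0 for the interaction; the log2 fold changes at E7.5 turned to 0.043 for Lamc1 and 0.20 for Col4a5, and that of Lama1 at E6.5 to 0.12. The block changed no other count by over 1.5 times. Whether the numbers pair the embryos is not settled. Same-numbered epiblasts of both genotypes correlated by -0.174 to 0.168 in their deviations from the group means. The best-matching WT epiblast had the same number for null epiblasts 1 and 2 at E5.5 and 2, 3, 4, 5 and 8 at E6.5. It had another number for null epiblasts 1, 6 and 7 at E6.5 and 1, 2 and 3 at E7.5. The EpiSC lines share no number.

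Directions turned for genes that were not called, and for 1 called companion gene. With the covariate the log2 fold change was -0.47 for Col4a1 at E6.5; at E7.5 it was 0.14 for Lamc1, -0.34 for Lama5, 0.30 for Col5a1, 1.02 for Col4a5, 0.19 for Col4a6, 0.19 for Col13a1 and 0.026 for Fbln1, which had been called lower; it was 0.94 for Lama1 from E5.5 to E6.5 in WT, and -0.24 for Lama1, -0.20 for Col4a1 and -0.28 for Col4a2 from E6.5 to E7.5. At E6.5 Lama1 turned to 1.09 with voom and ranged from -0.92 to 0.34 leaving out single libraries (0.34 without WT epiblast 4), Col4a1 turned to -0.30 among the 6 deepest libraries and Col1a1 to -0.26 among the others. In EpiSC lines Col18a1 ranged from -0.17 to 0.060 leaving out single lines (0.060 without WT line 13). Genes below about 1 CPM rest on few counts and their folds are the least certain.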
